A study of Sus scrofa with 6 samples.

Results

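The genes described here carry out glycolysis, handle lactate and pyruvate, or belong to the cell's response to low oxygen. They were a fixed set of 41 gene symbols, matched to the rows of a deposited table of 14262 genes through Ensembl pig gene identifiers. Of the 41, 37 matched a row: 17 of 17 glycolytic enzymes, 7 of 8 genes of lactate and pyruvate handling, 5 of 6 genes of the hypoxia-inducible factor (HIF) and its oxygen sensors, and 8 of 10 HIF targets. SLC16A1, VHL, BNIP3 and CA9 matched no row and are not analysed here.

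The samples were endometrium, the inner lining of the uterus, taken on day 12 of gestation from 6 sows (Sus scrofa) of the Chinese Erhualian breed, 3 of them high prolific and 3 low prolific. Each library came from 1 sow, and each is called by its group with the number in its label. Sows high 1 to high 3 were of parity 5, 8 and 8 and low 1 to low 3 of parity 7, 7 and 5, parity being how many times a sow has farrowed. No treatment or genetic change is labelled, litter sizes are not used here, and the groups differ by the prolificacy label and not by an intervention. All values are normalized read counts, which are relative within a gene and are not compared between genes, since they are not divided by gene length.

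In glycolysis, glucose is phosphorylated, split and oxidised to pyruvate, which either enters the mitochondrion through pyruvate dehydrogenase or is reduced to lactate. HIF is a transcription factor of an alpha subunit (HIF1A or EPAS1) and the beta subunit ARNT. With oxygen present, prolyl hydroxylases (EGLN genes) mark the alpha subunit for destruction through VHL, and with little oxygen it accumulates and switches on glycolytic enzymes and a wider set of targets. In pigs, day 12 falls in the window when the conceptus elongates in a uterine lumen that the endometrium supplies with glucose and other nutrients.

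Columns of the table summed to between 22663087 and 24270245, sums set by the normalization and not sequencing depths, so the depth behind each value is unknown. On the leading principal component, with 43.6% of the variance, low 2 (43.5) and low 3 (44.2) stood away from the 4 remaining sows (-40.9 to -1.52). Endometrial identity was checked with 8 uterine markers, among them PGR, ESR1 and HOXA10. All 8 were measured, with a summed level of 17768 to 21466 in high and 14251 to 20918 in low prolific sows, and no value under 222. Summed levels of 7 measured stromal markers were 409539 to 569741 and 481567 to 644279, those of 7 epithelial markers 71005 to 71644 and 61125 to 81456, and those of 5 endothelial markers 8838 to 13303 and 11537 to 20753, in high and low prolific sows. The 4 measured neutrophil markers summed to 276 to 9139 in high and 11666 to 23295 in low prolific sows. Such sums follow the markers with the largest values, COL1A1 and COL3A1 in stroma and MMP8 (11244) in low 1. All low prolific sows lay above all high ones in 4 of 7 smooth muscle, 2 of 5 gland, 3 of 7 epithelial, 2 of 7 stromal and 2 of 5 endothelial markers. This held in 0 of 4 neutrophil and 0 of 8 uterine markers, against 6.32% of all genes. No measured marker of these lists was at 0 in any sow.

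No glycolysis or hypoxia gene differed between high and low prolific sows past the threshold. The test was limma on log2(value + 1), with p-values adjusted by the Benjamini-Hochberg method over all 14262 genes at a threshold of 0.05. It called 0 of the 37 members, with adjusted p between 0.619 and 0.991, and 0 genes of the whole table (0.00%). At an unadjusted p under 0.05 there were 3 members, or 8.11% of the 37, against 7.92% of all genes. LDHD was the 1 higher in high prolific sows (3.83% of all genes), and ENO1 and PGK1 were the 2 lower (4.09% of all genes). The groups did not overlap in 4 members (10.8%), against 13.5% of all genes. In LDHD and ALDOC all high prolific sows were above (7.18% of all genes), and in ENO1 and PGK1 all low prolific sows were above (6.32% of all genes). With all 6 sows in the test, the shares of members at p under 0.05 and without overlap lay near the background. In 25 of the 37 the log2 fold change, given throughout as high minus low prolific, was below 0 (67.6%, against 50.4% of all genes). Over all 37 it lay within 0.2 of 0, in either direction, in 22. In the plot of log2 fold changes for all members, LDHD stands far to the right of the rest.

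**Figure D1:**
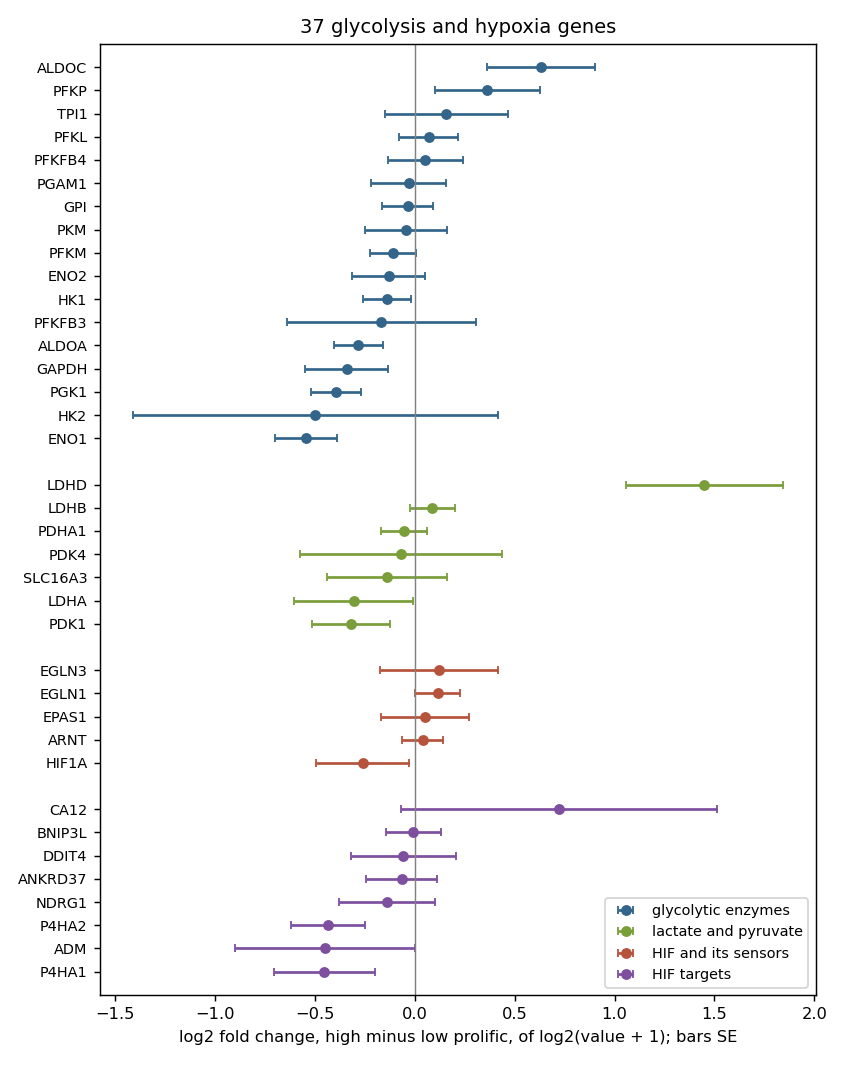
Log2 fold change (high minus low prolific, log2(value + 1) scale) of the 37 measured members, sorted within 4 groups by role. Points are estimates and bars the moderated standard error. Most points lie within 0.5 of 0, LDHD is at 1.45 and ENO1 at -0.54, and none passed over all genes.

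Among the glycolytic enzymes, ENO1 and PGK1 lay lower and ALDOC higher in every high prolific sow than in any low prolific sow, without passing the test. Over the 17 enzymes, 12 had a log2 fold change below 0 and 5 above, with a median of -0.11 against a median of -0.0024 over all genes. That median was -0.021 without high 1 and -0.022 without low 2. ENO1 (ENSSSCG00000022343), the enolase that forms phosphoenolpyruvate, was at 3565, 3002 and 3761 in high 1 to high 3 and at 5129, 5798 and 4204 in low 1 to low 3. Every low prolific sow was above every high prolific sow. The means were 3443 ± 394 and 5044 ± 801 (SD, n = 3), a log2 fold change of -0.54 ± 0.16 (SE, adjusted p = 0.619 with limma).

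PGK1 (ENSSSCG00000012440), phosphoglycerate kinase, makes ATP directly in the pathway. Its values were 3153, 2701 and 2914 in the high and 4001, 4213 and 3337 in the low prolific sows, again without overlap. In log2 terms the difference was -0.39 ± 0.13 (SE, adjusted p = 0.619 with limma). ALDOA, the aldolase that splits fructose bisphosphate, was at 6675 ± 544 against 8122 ± 774 (SD, n = 3), where 7266 in high 1 and 7246 in low 3 overlapped.

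GAPDH, which oxidises glyceraldehyde phosphate and is widely used as a reference transcript, was at 11294, 12208 and 12131 in the high and at 15737, 19316 and 11185 in the low prolific sows. It was thus high in low 1 and low 2, while low 3 lay below all 3 high prolific sows. The log2 fold change of -0.34 ± 0.21 (SE) was -0.16 without low 2 and -0.55 without low 3. PKM, the pyruvate kinase of most tissues, was at 7405, 8638 and 9269 against 10219, 9865 and 6446, with low 3 again the lowest sow. Its log2 fold change of -0.04 turned above 0 without high 1 (0.047), low 1 (0.075) or low 2 (0.050) and with quantile normalization (0.020). PGAM1, phosphoglycerate mutase, was likewise at 3622 and 3712 in low 1 and low 2 and at 2371 in low 3, with 3049 to 3202 in the high prolific sows.

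ALDOC (ENSSSCG00000017759), the aldolase best known from brain, went the other way. It was at 103, 162 and 106 in the high and at 93.8, 81.4 and 61.6 in the low prolific sows, a log2 fold change of 0.63 ± 0.27 (SE, adjusted p = 0.633 with limma) with no overlap. The value was 0.42 without high 2, and 0.36 with low 2 and low 3 left out. PFKP, the platelet-type phosphofructokinase, lay higher in high prolific sows too (3296 ± 808 against 2578 ± 704), with overlap. PFKL and PFKM, the liver and muscle types, had log2 fold changes of 0.07 and -0.11.

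At the entry step, HK2, the inducible hexokinase, varied more between sows than any other member. It was at 235, 703 and 1645 in high 1 to high 3 and at 806, 2582 and 368 in low 1 to low 3, a span of 3.45 log2 units. The lowest values fell in high 1 and low 3, 1 in each group. The log2 fold change of -0.50 ± 0.92 (SE) turned to 0.23 without high 1 and to 0.25 without low 2, and was -1.17 without high 3, -1.15 without low 3 and -1.04 with parity as a covariate. HK1, the constitutive hexokinase, stayed between 3793 and 4866. PFKFB3, which makes the activator of phosphofructokinase, reached 1542 in high 1 and 2140 in low 3, while the remaining 4 sows had 711 to 888.

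The remaining enzymes differed little. The log2 fold change was -0.04 for GPI, 0.05 for PFKFB4 and -0.13 for ENO2, the neuronal enolase. TPI1, triose phosphate isomerase, was listed at 27.4 to 49.6. Some glycolytic genes have near-identical processed copies in the genome, and counting can divide or discard the reads they share, so the levels of TPI1, GAPDH, PGK1, ENO1, LDHA and others of this kind are uncertain.

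**Figure D2:**
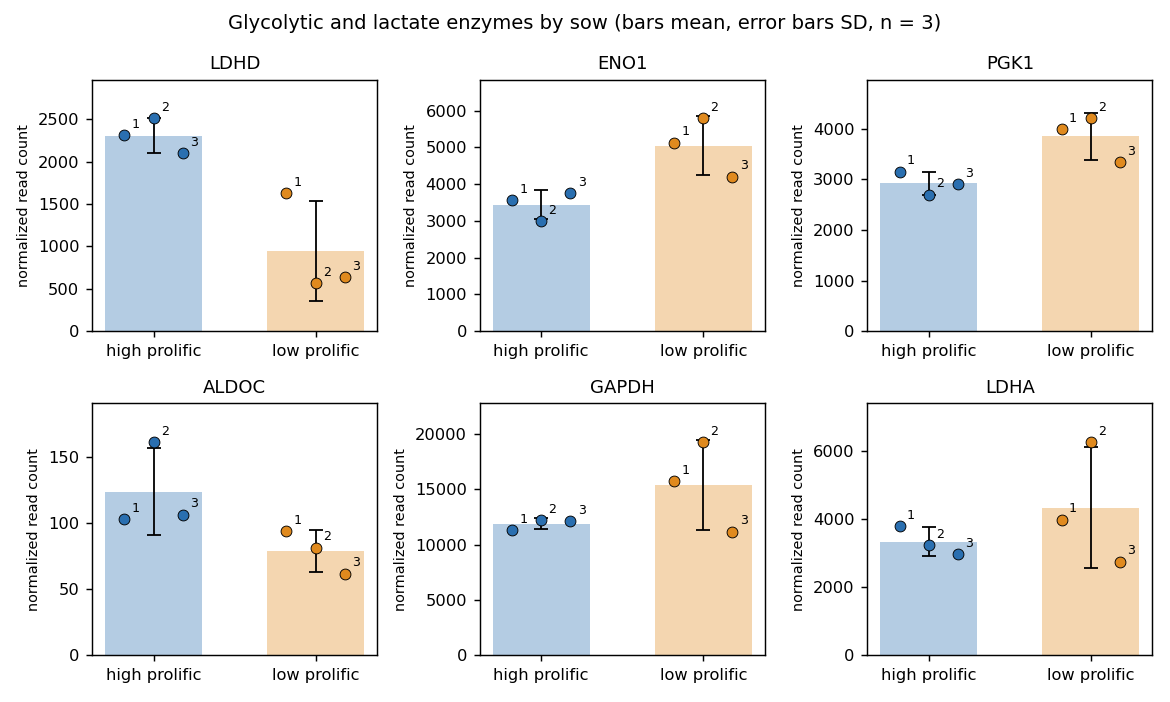
Level of 6 glycolytic and lactate enzymes (y axes, normalized read counts, linear and starting at 0). Blue stands for high and orange for low prolific, a bar for the mean over 3 animals with its SD, and a numbered point for 1 animal. LDHD is lowest in low 2 (570) and low 3 (642), ENO1 and PGK1 lie higher in all 3 low prolific sows, and GAPDH and LDHA peak in low 2.

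Of the 7 measured genes of lactate and pyruvate handling, LDHD had the largest log2 fold change of all members. LDHD (ENSSSCG00000002712) encodes the mitochondrial dehydrogenase of D-lactate, the mirror-image form that is not made by glycolysis itself. It was at 2312, 2516 and 2101 in high 1 to high 3 and at 1633, 570 and 642 in low 1 to low 3. The high prolific sows kept within a narrow range, and low 2 and low 3 lay far below low 1. The means were 2309 ± 207 against 948 ± 594 (SD, n = 3). The log2 fold change was 1.45 ± 0.39 (SE, adjusted p = 0.619 with limma), a fold of 2.73.

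That LDHD value rested on which low prolific sows were in the test. Without low 1 it was 1.93 and passed over all genes (adjusted p = 0.0385 with limma). Over its 17 alternatives the adjusted p ran from 0.0385 to 0.9999, and the other 16 did not pass. Without both low 2 and low 3 it was 0.50, and with parity as a covariate 1.39. Some markers of other cells also set low 2 and low 3 apart, and others of the same lists did not. Of the 4 neutrophil markers, S100A8 reached 5414 in low 2 and 10857 in low 3, against at most 713 elsewhere, and S100A12 had 7533 and 5283, against at most 582. CSF3R was lowest in low 2 (44.3) and highest in high 1 (385), and MMP8 was at 1706 in low 3 but at 8703 in high 3 and 11244 in low 1. Of the 7 epithelial markers, the keratins KRT8 and KRT18 were lowest in low 2 and low 3, KRT8 with 14061 and 11217 against 19084 to 27435. CDH1 was not, with 26177 and 19927 against 15318 to 22226. The part of cell makeup in the LDHD value was not tested, and in whole tissue fewer cells of a type and less RNA per cell cannot be told apart.

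The dehydrogenases of ordinary L-lactate did not follow LDHD. LDHA, the subunit that favours lactate formation, was at 3804, 3234 and 2965 in the high and at 3987, 6280 and 2752 in the low prolific sows. The groups overlapped, with both the highest and the lowest sow in the low prolific group, and the log2 fold change of -0.31 ± 0.30 (SE) was 0.0016 without low 2 and -0.59 without low 3. LDHB, the subunit of oxidative tissue, was at 10710, 9292 and 10631 against 9895, 9938 and 8949. Its span of 0.26 log2 units was among the narrowest of the set, and its log2 fold change was 0.09 ± 0.11 (SE), 0.039 without low 3 and 0.16 without high 2.

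Lactate leaves glycolytic cells through SLC16A3, a monocarboxylate exporter. Its normalized read counts were small, at 52, 52.9 and 61.6 in the high and 73.2, 40.9 and 76.1 in the low prolific group. They do not give its level beside other genes. The log2 fold change of SLC16A3 was -0.14 ± 0.30 (SE), -0.43 without low 2 and 0.015 without low 3. Pyruvate dehydrogenase, the gate to the mitochondrion, is switched off by PDK kinases. PDK1, a HIF target, was at 661, 617 and 740 against 646, 1047 and 868, a log2 fold change of -0.32 ± 0.19 (SE) that was -0.51 without low 1 and -0.16 without low 2, and 0.055 when both low 2 and low 3 were left out. PDK4, the kinase that responds to fasting and glucocorticoids, was at 2406, 2173 and 1839 against 1272, 1687 and 5188. Here low 3 alone stood above the rest, and the log2 fold change of -0.07 ± 0.51 (SE) was 0.54 without low 3, -0.48 without low 1, -0.27 without low 2, -0.16 without high 1 and 0.034 without high 3. It also turned with library weights (0.19), with parity as a covariate (0.16) and without both low 2 and low 3 (0.74). PDHA1, the catalytic subunit that these kinases phosphorylate, stayed between 2759 and 3338.

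The groups overlapped in all 5 measured transcripts of HIF and its oxygen sensors. In 4 the log2 fold change was above 0 and in HIF1A below, with a median of 0.05 that was -0.12 without low 2 and 0.11 without low 1 or low 3. HIF1A was at 8829, 7919 and 10837 in the high and at 12858, 12921 and 7851 in the low prolific sows. Low 1 and low 2 stood above the other sows and low 3 was the lowest of all, as in GAPDH and PKM. The log2 fold change of -0.26 ± 0.23 (SE) was -0.14 without low 1 or low 2, -0.16 without high 2 and -0.50 without low 3.

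EPAS1, the alpha subunit prominent in endothelium, was at 29285, 28602 and 30039 in the high and at 33746, 20177 and 33165 in the low prolific sows. Low 2 was the lowest, and without it the log2 fold change went from 0.05 to -0.19. ARNT, the shared partner, had a log2 fold change of 0.04 ± 0.10 (SE). EGLN1, the main prolyl hydroxylase, was at 2020, 2308 and 1861 against 1877, 2013 and 1811. EGLN3, a prolyl hydroxylase that HIF itself induces, was at 244, 231 and 167 against 277, 139 and 190, and its log2 fold change of 0.12 ± 0.29 (SE) turned to -0.12 without low 2 and to -0.39 without both low 2 and low 3.

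Among the 8 measured HIF targets, 7 had a log2 fold change below 0 (50.4% of all genes) and 1 above, and none passed the test. Their median of -0.10 was -0.26 without low 2 and -0.046 without low 3. The collagen prolyl 4-hydroxylase subunits P4HA1 and P4HA2, which hydroxylate collagen chains in the endoplasmic reticulum, had the smallest p. P4HA2 was at 2041, 1549 and 1452 in the high and at 2050, 2753 and 2002 in the low prolific sows, with overlap only between 2041 in high 1 and 2002 in low 3 (log2 fold change -0.43 ± 0.19, SE, adjusted p = 0.633 with limma). Without low 2 it was -0.29.

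P4HA1 was at 2218, 1830 and 1541 against 1755, 2914 and 3134. Low 2 and low 3 were high and low 1 lay within the high prolific range. Its log2 fold change of -0.45 ± 0.25 (SE) was -0.71 without low 1 and -0.30 without low 3, and 0.071 when low 2 was left out too. The collagen transcripts COL1A1 and COL3A1 were at 255612 and 304833 in low 2 and at 211415 and 301184 in low 3, with 132411 to 196786 and 202887 to 279313 in the other 4 sows. Of the other stromal markers, LUM and FBLN1 were also highest in low 2 and low 3, while DCN, VIM and PDGFRA were not. PDGFRA was at 4970 in low 2, against 5214 to 7661 in the high prolific sows. The part of collagen-producing cells in the P4HA values was not tested.

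CA12, a carbonic anhydrase of the cell surface that handles acid, was at 532, 229 and 226 in the high and at 276, 53.2 and 413 in the low prolific sows. Low 2 was far below the rest, and the log2 fold change of 0.72 ± 0.79 (SE) was -0.16 without low 2, 0.31 without high 1 and 1.31 without low 3. ADM, the vasodilator peptide adrenomedullin, was at 723, 256 and 400 against 494, 417 and 918. High 1 and low 3 had the 2 highest values, in different groups, and the log2 fold change of -0.45 ± 0.45 (SE) was -0.84 without high 1, -0.68 without low 2, -0.093 without high 2, -0.11 without low 3 and -0.17 with parity as a covariate. NDRG1, a stress-response gene, reached 1722 in high 1 and 2348 in low 3, while the rest had 1315 to 1435. DDIT4, an inhibitor of mTORC1 signalling, reached 4393 and 5840 in these 2 sows, while the rest had 3002 to 3688. BNIP3L, a mitophagy receptor, and ANKRD37 had log2 fold changes of -0.01 and -0.07.

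**Figure D3:**
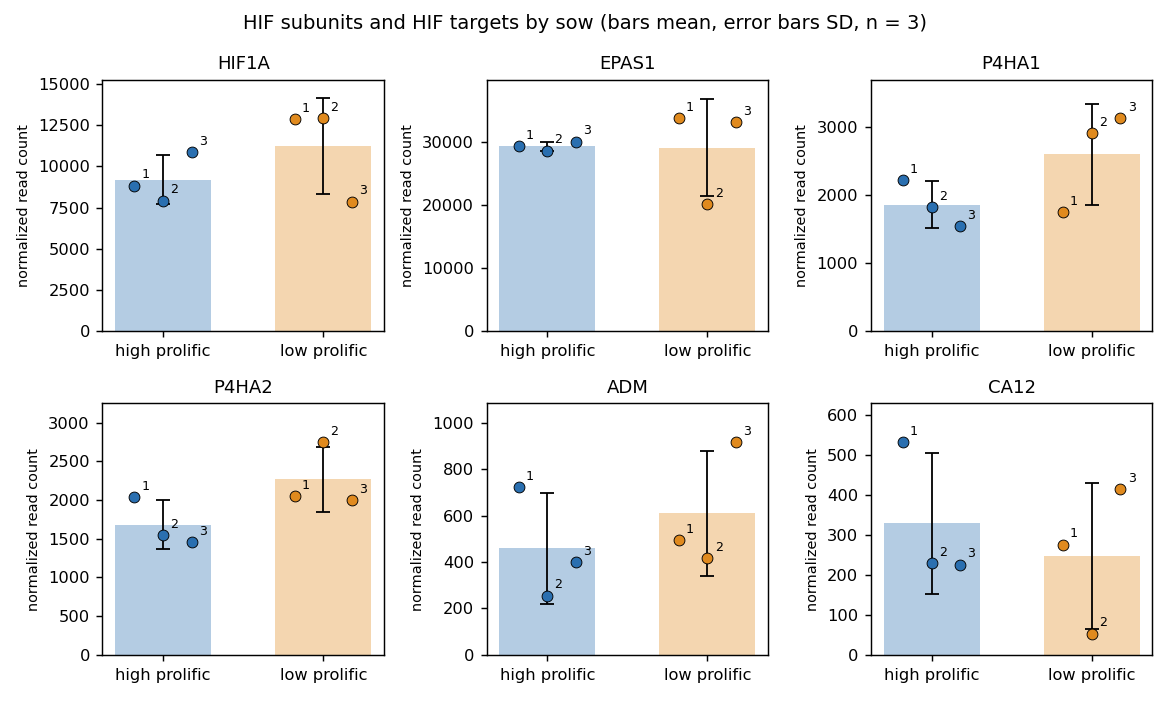
Level of the HIF alpha subunits HIF1A and EPAS1 and of 4 HIF targets (y axes, normalized read counts, linear and starting at 0). Blue stands for high and orange for low prolific, a bar for the mean over 3 animals with its SD, and a numbered point for 1 animal. The groups overlap in all 6 genes, ADM is highest in high 1 (723) and low 3 (918), and CA12 is lowest in low 2 (53.2).

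Glycolysis and lactate handling were then set beside the HIF genes. The median log2 fold change was -0.09 over the 24 measured genes of glycolysis and lactate handling, with 17 below 0, and -0.06 over the 13 HIF genes and targets, with 8 below 0. Members at an unadjusted p under 0.05 with limma numbered 3 of 24 and 0 of 13, against 7.92% of all genes. Counts this small do not tell the 2 sets apart. The former median was -0.013 without low 2, and -0.19 with low 2 and low 3 left out. The latter ran from -0.17 without low 2 to 0.080 without low 3, and was 0.013 with quantile normalization.

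The listed HIF targets and glycolytic enzymes parted more in 1 sow than between the groups. Each gene was centred on its own 6-sow mean of log2(value + 1), and the median of these deviations over a set of genes was taken in every sow. In low 3 this median was 0.57 for the HIF targets and -0.20 for the glycolytic enzymes, a gap of 0.77, while in the other 5 sows the same gap lay between -0.27 and 0.15. Low 3 was the highest sow in 5 of 8 HIF targets and the lowest in 7 of 17 glycolytic enzymes, while over all genes it was the highest in 22% and the lowest in 23.2%. The enzymes lay above the targets in low 2 (a gap of -0.27), high 2 (-0.18), low 1 (-0.15) and high 3 (-0.03), and below them in high 1 (0.15). The wider lists described below parted less in low 3, with medians of 0.22 over 23 further HIF targets and 0.02 over 23 further genes of glycolysis and pyruvate use. Marker lists also moved in low 3, most of all with medians of 2.12 for neutrophil, 1.77 for erythrocyte (2 measured) and 1.26 for gland markers. The medians were 0.74 for endothelium, 0.43 for stroma, 0.36 for smooth muscle and 0.24 for macrophages. For uterine identity and conceptus markers they were 0.07, for epithelium -0.07 and for T and NK cells -0.10. The part of cell makeup in the gap was not tested. These are descriptions of single sows, with no test.

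**Figure D4:**
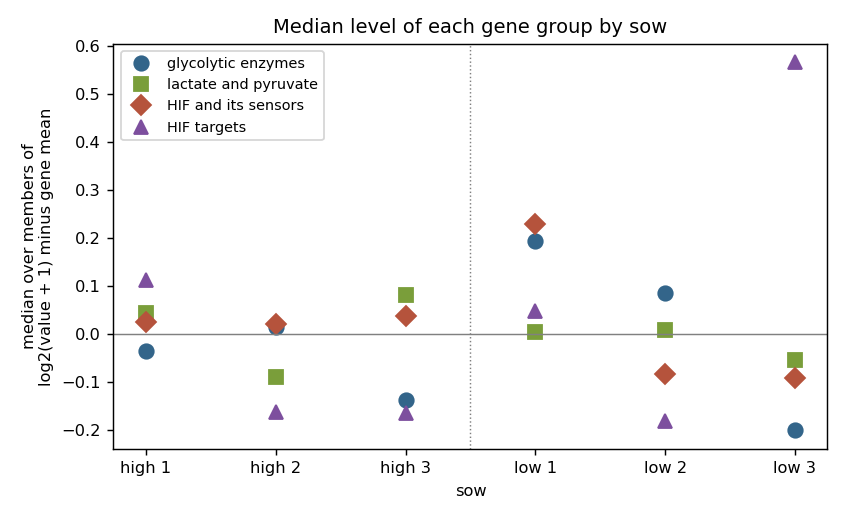
Median deviation of each set of members (y axis, log2 units from each gene's 6-sow mean) in every sow (x axis). In low 3 the HIF targets (0.57) and the glycolytic enzymes (-0.20) lie farthest apart, and in the other 5 sows the gap between them is between -0.27 and 0.15.

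High 1 and low 3 were the 2 sows of parity 5, and in 12 members both lay beyond the other 4 on the same side. The parities of 7 and 8 were not set against each other, and the count was made after the values were seen and carries no test. Both parity 5 sows lay above the other 4 in 6 of 37 members (16.2%), against 11.1% of all genes. Of these, 4 were among the 8 HIF targets (CA12, ADM, NDRG1 and DDIT4) and the others were PFKFB3 and PDK4. Both lay below the other 4 in 6 of 37 members (16.2%), against 10.6% of all genes. Of these, 5 were among the 17 glycolytic enzymes (HK2, GPI, TPI1, GAPDH and PKM) and 1 was BNIP3L. In the wider lists described below, both lay above in 5 of 23 further HIF targets (21.7%) and below in 1. Of 23 further genes of glycolysis and pyruvate use, both lay below in 3 and above in 1. Of 11 further HIF subunits and regulators, both lay above in 2 and below in 0. The same sows were the 2 highest for 3 of 7 stromal markers (DCN, VIM and PDGFRA) and 2 of 5 endothelial markers (CDH5 and TEK), and for 0 of 7 epithelial markers. VIM, for example, reached 25308 in high 1 and 36924 in low 3, while the rest had 16205 to 20368. The 2 sows were also highest for 2 of 7 smooth muscle, 2 of 8 uterine, 1 of 5 gland, 1 of 4 neutrophil and 1 of 4 conceptus markers. For macrophage, T and NK cell and erythrocyte markers the counts were 0 of 7, 0 of 6 and 0 of 2. The part of parity or of cell makeup in these values was not tested. In the colour map of members by sow, the 12 members have the same colour in the columns of high 1 and low 3, most strongly in HK2, PFKFB3, CA12 and ADM.

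**Figure D5:**
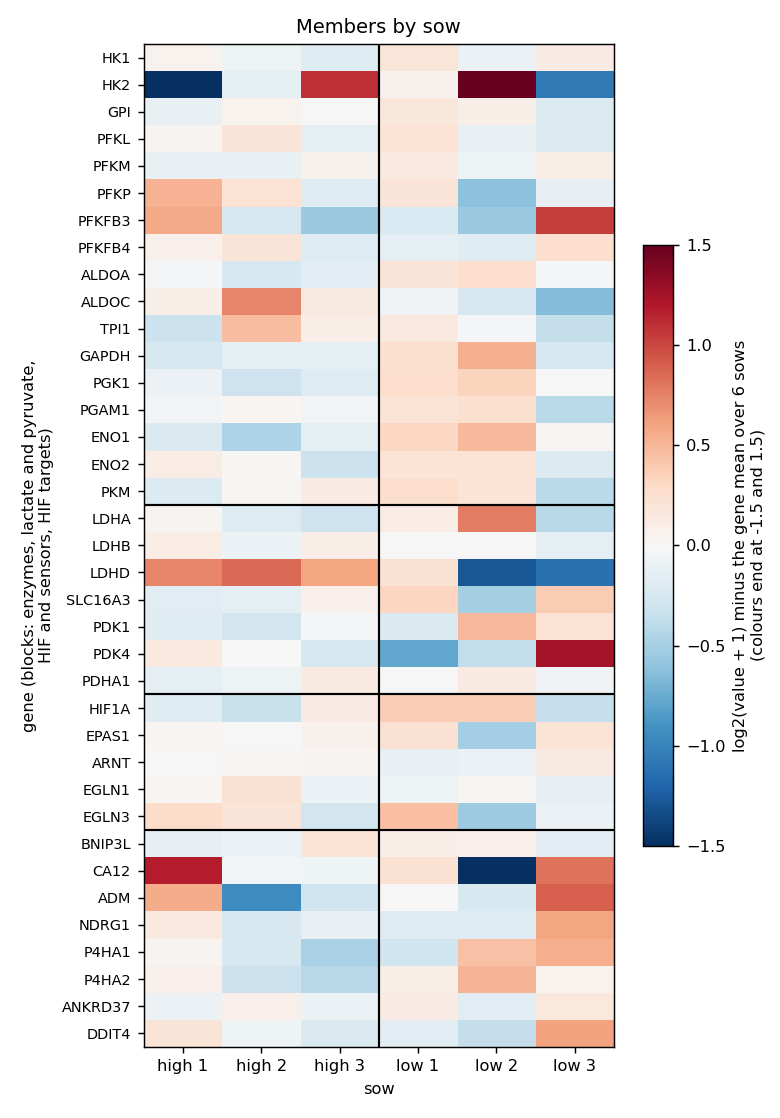
Deviation in log2 units from each gene's 6-sow mean, for the 37 measured members (rows, in 4 blocks by role) in each sow (columns, high prolific left of the line). Red is above and blue below the gene's mean, and colours end at -1.5 and 1.5. LDHD is blue in low 2 and low 3, and CA12, ADM, NDRG1, DDIT4, PFKFB3 and PDK4 are reddest in high 1 and low 3.

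Other genes of the same pathways, from lists of related function, gave 0 calls past the threshold among 57 measured (0.00% of all genes). Of 23 further genes of glycolysis and pyruvate use, 12 lay below 0 and 11 above, with a median of -0.03. At an unadjusted p under 0.05 there were 3 (7.92% of all genes): HK3, SLC16A7 and PDPR. HK3, the hexokinase of blood-derived white cells, was at 396, 441 and 454 in the high and at 829, 2206 and 789 in the low prolific sows. All low prolific sows were above all high ones, with low 2 highest, and the log2 fold change was -1.39 ± 0.40 (SE, adjusted p = 0.619 with limma), -0.91 without low 2. The summed neutrophil markers given above also lay higher in all 3 low prolific sows, in low 1 mostly through MMP8 (11244). S100A8, S100A12 and CSF3R in low 1 (85.2, 169 and 168) were no higher than in high 1, and the part of neutrophils in HK3 was not tested.

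SLC16A7, an importer of pyruvate and lactate, was at 258, 229 and 213 against 306, 273 and 355. The groups did not overlap, and the log2 fold change was -0.41 ± 0.16 (SE). PDPR, a regulator of the phosphatase that reactivates pyruvate dehydrogenase, was higher in high prolific sows, at 2772, 3755 and 3441 against 2294, 2250 and 2822 (log2 fold change 0.43 ± 0.16, SE). EMB, embigin, a partner protein of monocarboxylate transporters, was chosen after its values were seen. It was at 636, 153 and 143 in the high and at 255, 6019 and 5396 in the low prolific sows, so that only low 2 and low 3 stood out (log2 fold change -3.07 ± 1.31, SE, adjusted p = 0.633 with limma).

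Of 11 further HIF subunits, cofactors and regulators, 10 had a log2 fold change above 0 (49.6% of all genes), with a median of 0.10. These 10 include ELOC at 6.7e-05, and only ARNT2 had an unadjusted p under 0.05 with limma (7.92% of all genes). The list holds both partners and inhibitors of HIF. ARNT2, a relative of ARNT, was at 2262, 3106 and 1502 against 1277, 1212 and 1653, with overlap between high 3 and low 3. Its log2 fold change was 0.68 ± 0.28 (SE), 0.43 without high 2. CITED2, which competes with HIF1A for the coactivator EP300, was at 1499, 1672 and 1562 against 1206, 1074 and 1574 (log2 fold change 0.31 ± 0.16, SE), and 0.19 without low 2. HIF3A, an alpha subunit that can dampen HIF, was at 707, 1096 and 1096 against 766, 689 and 770. Its value of 0.35 ± 0.19 (SE) was 0.56 without high 1.

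Of 23 further HIF targets, 9 lay above and 14 below 0, with a median of -0.05. VEGFA, the main angiogenic factor under HIF, was at 4871, 3585 and 4457 in the high and at 4403, 5050 and 4319 in the low prolific sows, with a log2 fold change of -0.10 ± 0.15 (SE) that was 0.025 without high 2 and -0.20 without high 1. LOX, which crosslinks collagen, was at 1007, 911 and 705 against 985, 1341 and 1934, with a log2 fold change of -0.66 ± 0.27 (SE) that was -0.41 without low 3 and -0.19 with low 1 as the 1 low prolific sow. PIM1, a kinase, was at 173, 157 and 128 against 177, 189 and 413, and its value of -0.66 ± 0.35 (SE) was -0.27 without low 3. SLC2A1, the glucose transporter among classical targets, had no matching row and was not analysed here.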

How the data were processed

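Per the labels' protocols, frozen endometrium was extracted with Trizol and sequenced on Illumina libraries. The authors deposited 1 normalized read count per gene and sow, a signal that is never negative and not whole. Per the submitters' processing notes they used Subread 1.6, featureCounts and edgeR. Build, annotation, strand setting and kind of normalization are not given in the sources used here. Coordinates are therefore left out. Values under 20 were within 0.1 of whole multiples of a best step in 40.9% (high 2) to 100% (high 3) of cases, so whole reads could not be had back and count models were not used. All 14262 genes were at 10 or more in at least 3 libraries, so low genes had been removed before deposit. Symbols matched 11977 of them.

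High and low prolific sows were tested against each other on log2(value + 1), a scale that understates changes of low genes, by limma (version 3.58.1, run under R 4.3.3) with variance trend and robust moderation, two-sided. The procedure was tested on simulated data. Values by sow are printed for the 3 members with the smallest p and the widest-ranging member of each list, the 3 other pathway genes with the smallest p, and genes fixed by name, except 1 gene that is not reported here. The members and lists were chosen with earlier results of these data known. Alternatives were other pseudocounts (10 and 0.1), filters, scalings, moderation, library weights, parity, a replicate block and left-out sows.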

Additional observations from a re-analysis of the deposited data

How the results depend on the processing

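Of the 30 genes that the rule for named genes selected, 19 kept their direction in each of up to 17 alternatives. The filters, the fit without trend or robust moderation and the replicate block leave a gene's log2 fold change as it is. They could therefore turn no gene. Many of the 30 were also chosen by a small p in these same data, so the count is no measure of how firm the directions are. Leaving out 1 sow at a time gave between 0 and 4 called genes in all (4 without low 1, 1 without low 2) and between 0 and 1 called member (LDHD, 1.93 without low 1), and every other alternative gave 0. Members at an unadjusted p under 0.05 with limma numbered 3 of 37 as reported. With 1 sow left out they numbered between 2 (without high 2) and 9 (without low 3). All 14262 genes gave between 466 (without high 2) and 1872 (without low 1), and 1379 without low 3. The share of members was thus above that of all genes without low 3, and did not stay near the background for every set of sows. With library weights there were 7 members and 1662 of all genes. Over single left-out sows, the log2 fold changes that turned ran from -1.17 to 0.25 for HK2, -0.59 to 0.0016 for LDHA, -0.12 to 0.38 for EGLN3, -0.16 to 1.31 for CA12, -0.26 to 0.075 for PKM, -0.43 to 0.015 for SLC16A3, -0.48 to 0.54 for PDK4, -0.19 to 0.18 for EPAS1 and -0.20 to 0.025 for VEGFA. Without both low 2 and low 3, which leaves 1 low prolific sow assumed to vary like the high prolific ones, PDK1 (0.055), P4HA1 (0.071), EGLN3 (-0.39), EPAS1 (-0.20) and PDK4 (0.74) turned. PKM turned with quantile normalization (0.020), and PDK4 with library weights (0.19) and parity (0.16). With 1 sow left out, list medians ran from -0.14 to -0.021 for glycolytic enzymes (-0.22 with both low 2 and low 3 out), from -0.26 to -0.046 for HIF targets (-0.014 with both out), from -0.10 to -0.013 for glycolysis and lactate handling together, from -0.14 to 0.015 for lactate and pyruvate handling (0.042 without both sows), from -0.12 to 0.11 for HIF and its sensors (-0.20 without both) and from -0.17 to 0.080 for HIF genes and targets together. The cause of these shifts was not tested. The filter of 10 or more in at least 3 sows removed 0 genes.

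Same-numbered sows did not deviate together (correlations across genes of -0.38, -0.16 and -0.36). Deviations within a group of 3 sum to 0 and so depend on each other. These correlations therefore cannot settle whether the numbers mark a pairing. With a replicate block 0 members and 0 genes in all were called, 615 genes had an unadjusted p under 0.05, against 1129, and no sow correlated best with its own number. The depth is unknown, so no counting interval is given, and 3 sows per group limit what can be called.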

Other observations

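Branches that leave glycolysis were looked at through lists drawn up after the members' values were seen, and 0 of their genes passed over all genes with limma (adjusted p between 0.619 and 0.992). In the pentose phosphate pathway, 6 of 6 measured genes had a log2 fold change below 0 (50.4% of all genes), with a median of -0.09. The farthest was TKT, transketolase, at 1964, 1953 and 2011 in the high and 2350, 4914 and 2488 in the low prolific sows. TKT did not overlap between the groups and was farthest out in low 2 (log2 fold change -0.63 ± 0.28, SE). In the hexosamine pathway, which makes sugar nucleotides for glycosylation, 4 of 7 lay below 0 and 3 above. GNPNAT1, its acetyltransferase, was at 941, 866 and 938 against 1108, 1313 and 1222, also without overlap (-0.41 ± 0.11, SE). Of 13 glycogen genes, 6 lay below 0 and 7 above. PHKA2, a regulatory subunit of the kinase that starts glycogen breakdown, was at 949, 873 and 779 against 469, 422 and 732, with every high prolific sow above every low one (0.72 ± 0.22, SE). These were the genes without overlap in the 3 lists, 1 of 6 pentose phosphate, 1 of 7 hexosamine and 1 of 13 glycogen genes. Over all genes that share was 13.5%.

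D-lactate, the substrate of LDHD, arises from methylglyoxal through the glyoxalases. Of these, HAGH, the second glyoxalase, matched no row and was not analysed here. GLO1, the first glyoxalase, was at 1030, 1031 and 985 in the high and at 1104, 1093 and 1279 in the low prolific sows. All low prolific sows were above all high ones (6.32% of all genes). The log2 fold change was -0.19 ± 0.10 (SE, adjusted p = 0.668 with limma), the opposite direction to LDHD. Of 7 measured genes for fructose, polyol and new glucose formation, 5 lay below 0 (50.4% of all genes) and 2 above. Their median was -0.39, and the groups overlapped in all 7. The farthest was AKR1B1, at 14478, 4158 and 10563 in the high and 10224, 154398 and 48021 in the low prolific sows. Its log2 fold change was -2.30 ± 1.00 (SE, adjusted p = 0.633 with limma). PCK2, the mitochondrial enzyme that forms phosphoenolpyruvate, was at 1018 in high 1 and at 1117 and 1482 in low 2 and low 3. The remaining 3 sows had 180 to 357.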
